A study of Rattus norvegicus with 10 samples.

Results

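The genes described here encode the enzymes that build, elongate and desaturate fatty acids in the liver, together with the first enzyme of glycerolipid assembly and the transcription factor that drives the pathway. They are Acly, Acaca, Fasn, Elovl6, Scd, Elovl5, Fads2, Fads1, Gpam and Srebf1. All 10 had at least 1 probe set that the platform annotation assigns to a single gene symbol, and these came to 15 of the 15899 probe sets on the array. The comparison asked how their transcripts differed between 5 livers of rats given RG3487, a partial agonist of the alpha7 nicotinic acetylcholine receptor, at 180 mg/kg in 5 ml/kg by oral gavage, and 5 livers of rats given the vehicle, deionized water. All 10 animals were CRL:WI (Han) rats, a Wistar strain, aged 6 to 8 weeks, and 1 array was run per animal on RNA from the left lateral lobe. Collection was 24 h after dosing by the sample labels and 2 h by the text of the series. The sources used here give neither sex nor feeding state. Rats were caged in groups of 5, and since the cage of each animal is not given, its part in the results was not tested.

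Fads2 and Fads1, the enzymes that introduce double bonds into polyunsaturated fatty acids, were 2.27-fold and 1.64-fold lower with RG3487. No other gene of the group passed the test with the arrays as deposited. Acly, Acaca and Fasn, the core of fatty acid synthesis, had changes of 0.17 to 0.22 on the log2 scale that lay within the spread between animals. Scd, which makes monounsaturated fatty acids, varied so widely between animals of each group that a change of -0.65 did not pass.

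In hepatocytes, citrate exported from mitochondria is split to acetyl-CoA, which is carboxylated to malonyl-CoA and polymerised by fatty acid synthase to palmitate. Elongases and desaturases then modify palmitate and the essential fatty acids of the diet, and the products enter triglyceride, phospholipid and cholesteryl ester. The pathway is known as a target of insulin through SREBP-1c, a product of Srebf1 that is released from the endoplasmic reticulum under the control of INSIG proteins, and polyunsaturated fatty acids are known to restrain it.

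The promoter windows of the 2 genes that fell, and of Elovl5 as a gene of the same polyunsaturated pathway that did not pass, are shown because the first 2 moved together. Each runs from 250 bases before to 50 bases after the annotated start, from RefSeq on build GRCr8, with capitals marking matches on either strand to the E-box CACGTG, the CCAAT box CCAAT or the sterol regulatory element core TCACNCCAC. The Fads2 window is chr1:216171984-216172283 on the minus strand, the Fads1 window is chr1:216252442-216252741 on the plus strand, and the Elovl5 window is chr8:87670914-87671213 on the plus strand.
Fads2: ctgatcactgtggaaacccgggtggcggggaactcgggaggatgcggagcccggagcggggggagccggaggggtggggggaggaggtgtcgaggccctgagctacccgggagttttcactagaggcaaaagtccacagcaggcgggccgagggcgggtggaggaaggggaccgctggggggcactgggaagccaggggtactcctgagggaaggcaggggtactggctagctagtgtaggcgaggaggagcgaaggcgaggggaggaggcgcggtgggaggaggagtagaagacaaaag
Fads1: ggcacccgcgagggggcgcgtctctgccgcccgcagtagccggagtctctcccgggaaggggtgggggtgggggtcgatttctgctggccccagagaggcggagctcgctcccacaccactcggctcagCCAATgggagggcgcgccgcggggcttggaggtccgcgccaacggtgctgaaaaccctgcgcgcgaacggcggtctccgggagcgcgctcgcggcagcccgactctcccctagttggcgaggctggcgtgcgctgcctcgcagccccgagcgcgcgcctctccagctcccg
Elovl5: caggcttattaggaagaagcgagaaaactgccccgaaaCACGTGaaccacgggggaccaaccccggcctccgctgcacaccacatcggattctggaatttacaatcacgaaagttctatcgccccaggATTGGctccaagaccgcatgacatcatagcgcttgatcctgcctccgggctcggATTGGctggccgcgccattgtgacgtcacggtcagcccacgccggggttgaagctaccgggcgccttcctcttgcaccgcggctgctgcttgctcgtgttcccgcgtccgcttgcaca
The Fads2 window held none of the 3 motifs. The Fads1 window held 1 CCAAT box, and the Elovl5 window held 2 CCAAT boxes and 1 E-box. Of 33469 windows of the same length, 37.5% held a CCAAT box, 6.42% an E-box and 1.12% the sterol regulatory element core. Windows were given for 7 of the 10 genes, and none of these held the sterol regulatory element core. The motifs do not overlap one another in the 3 windows shown. A match here describes letters in a short window, and nothing follows from it, or from its absence, about binding of a factor.

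The signals are MAS5 intensities on a linear scale, 1 value per probe set and array. The array means lay between 330 and 332, since the deposited intensities were scaled. Precision rests on the number of arrays, 5 per group, and on the spread between animals, which differs between probe sets. Fold changes are on the scale of log2(signal + 16), which understates the change of dim genes. Probe sets in the dimmest 25% of the array, with a signal under about 40.2, were left out of the test, which left 12 of the 15 probe sets and 9 of the 10 genes. The test was limma with Benjamini-Hochberg adjustment over the 11894 retained probe sets, and an adjusted p under 0.05 was called a pass. Of the 12 probe sets of the group, 0 rose and 2 fell, against 27.7% of all retained probe sets that passed (20.5% higher and 7.16% lower). Of the 9 genes, 0 rose and 2 fell, against 29.7% that passed among 7727 genes (22.3% higher and 7.4% lower). The median change of the 9 genes was 0.17, and that of all genes 0.09. With 2 calls among so few, nothing is read from these shares about the group as a whole.

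**Figure D1:**
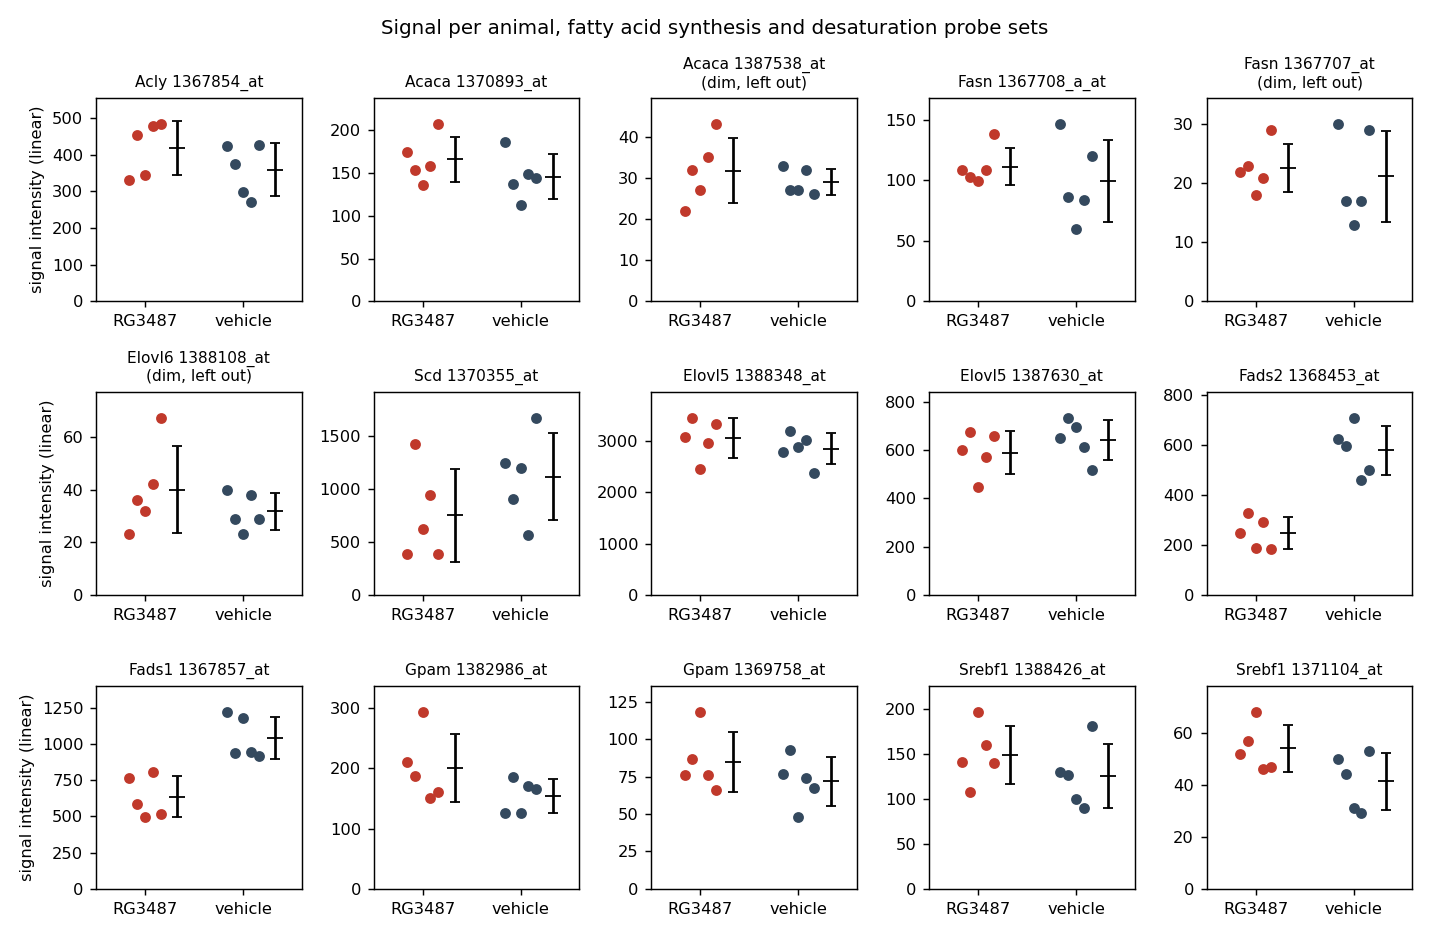
Signal intensity of each of the 15 probe sets in each liver, on linear axes that start at 0, with RG3487 on the left and vehicle on the right of each panel. Points are animals, and the bars beside them give mean and SD (n = 5 per group). The groups are apart for Fads2, at 185 to 327 with RG3487 and 461 to 707 with vehicle, and for Fads1, at 499 to 809 with RG3487 and 916 to 1221 with vehicle.

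Acly encodes ATP citrate lyase, which supplies cytosolic acetyl-CoA. It read 331, 455, 346, 479 and 483 in the RG3487 livers, against 425, 375, 298, 270 and 427 in the vehicle livers. The groups overlapped, with 3 RG3487 livers above and 2 inside the vehicle range. Its change was 0.22 ± 0.15 on the log2 scale (SE; 95% interval -0.10 to 0.54; limma adjusted p = 0.286).

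Acaca encodes acetyl-CoA carboxylase 1, which makes malonyl-CoA and commits acetyl-CoA to fatty acid synthesis. Its brighter probe set read 175, 154, 136, 158 and 207 with RG3487 and 186, 137, 113, 149 and 144 with vehicle. Animal 5 was the highest of the RG3487 group and animal 1 the highest of the vehicle group, and the groups overlapped. This probe set changed by 0.17 ± 0.12 (log2; 95% interval -0.10 to 0.44; limma adjusted p = 0.319). The second Acaca probe set was too dim to be retained, with signals of 22 to 43 under RG3487 and 26 to 33 under vehicle.

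Fasn encodes fatty acid synthase, which makes palmitate. Its retained probe set read 108, 103, 99, 108 and 138 with RG3487, against 146, 86, 60, 84 and 120 with vehicle. Vehicle animals 1 and 5 were high and animal 3 was low, so that the SD of the log2 signal was 0.17 with RG3487 and 0.42 with vehicle. The log2 change of 0.18 ± 0.17 (95% interval -0.19 to 0.56) did not pass (limma adjusted p = 0.452). It was 0.05 without vehicle animal 3 and 0.32 without vehicle animal 1. The dim second probe set had 18 to 29 with RG3487 and 13 to 30 with vehicle. In the vehicle group it too was highest in animals 1 and 5.

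The ratios of these 3 enzymes to one another within an animal were close in both groups. The log2 ratio of Fasn to Acaca was -0.51 ± 0.08 (SD, n = 5) with RG3487 and -0.52 ± 0.24 with vehicle (difference 0.01, exact permutation p = 0.921). Those of Fasn to Acly and of Acly to Acaca differed between the groups by -0.03 and 0.05 (exact permutation p = 0.849 and p = 0.754, two-sided). These p-values are among 7 ratios compared, for which adjustment gives 0.921 for each of the 3. A p that misses the threshold does not show that the ratios were equal.

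Elovl6 encodes the elongase that extends palmitate to stearate. Its only probe set was below the limit on dim signals and was left out of the test. It read 23, 36, 32, 42 and 67 with RG3487 and 40, 29, 23, 38 and 29 with vehicle. The groups overlapped, and RG3487 animal 5 was the highest, as it was for Acaca and Fasn. With no limit on dim signals the log2 change was 0.19 ± 0.18 (limma adjusted p = 0.472).

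Scd encodes stearoyl-CoA desaturase, which places the double bond of oleate and palmitoleate. Its signal was 390, 1424, 622, 938 and 386 in the RG3487 livers, against 1245, 908, 1195, 564 and 1663 in the vehicle livers. RG3487 animals 1 and 5 lay below all vehicle livers, and the other 3 lay inside the vehicle range. The log2 change was -0.65 ± 0.36 (95% interval -1.43 to 0.12; limma adjusted p = 0.19). The interval thus runs from a large decrease to a small increase. Without RG3487 animal 2 the change was -0.92 (adjusted p = 0.0528), and without RG3487 animal 5 it was -0.46 (adjusted p = 0.377). The pooled SD of its log2 signal within groups was 0.70, larger than that of 99.3% of retained probe sets, whose median was 0.148. All 12 retained probe sets of the group had an SD above that median, and the next largest were 0.32 for Fasn and for the brighter Srebf1 probe set. Scd was the most variable of the 12 between animals.

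Elovl5 encodes an elongase of polyunsaturated fatty acids that acts between the 2 desaturases. Its brighter probe set read 3077, 3437, 2445, 2951 and 3335 with RG3487 and 2782, 3199, 2875, 3014 and 2375 with vehicle. Its other probe set read 601, 673, 446, 569 and 658 with RG3487 and 650, 731, 695, 611 and 519 with vehicle. For both probe sets the groups overlapped, with RG3487 animal 3 and vehicle animal 5 the lowest of their groups. The log2 changes had opposite signs, 0.09 ± 0.10 for the brighter and -0.12 ± 0.12 for the dimmer probe set, and neither passed (limma adjusted p = 0.496 and 0.454).

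The 2 Elovl5 probe sets did not keep the same ratio in the groups. The log2 ratio of the dimmer to the brighter was -2.33, -2.33, -2.41, -2.34 and -2.31 with RG3487, against -2.07, -2.11, -2.02, -2.27 and -2.16 with vehicle. Every RG3487 liver lay below every vehicle liver. The difference was -0.22 (exact two-sided permutation p = 0.00794, the smallest this design can give; adjusted p = 0.0397 over the 5 genes with a pair of probe sets). This comparison was added after the values were seen. For the pairs of Acaca, Fasn, Gpam and Srebf1 the difference was -0.10, -0.11, -0.13 and 0.07, and the groups overlapped (exact permutation p = 0.532, 0.151, 0.365 and 0.714). A ratio within an array shows that the probe sets changed unequally and does not say which of them moved.

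**Figure D2:**
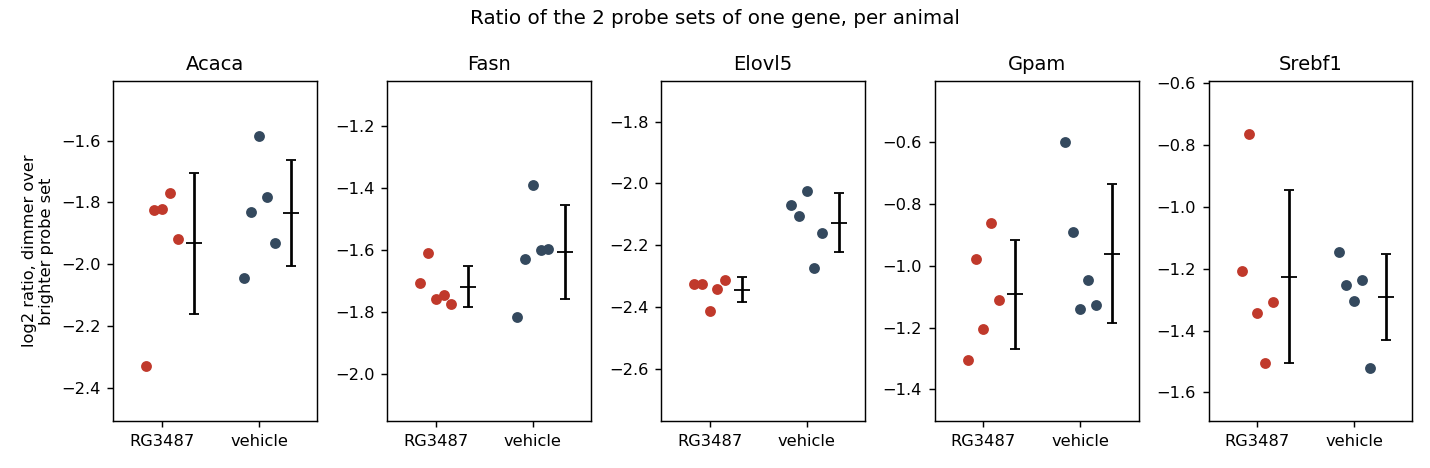
Log2 ratio of the dimmer to the brighter probe set of 1 gene in each liver, for the 5 genes with a pair of probe sets, with RG3487 on the left and vehicle on the right. Points are animals and bars give mean and SD (n = 5 per group), and every panel spans the same height on the log2 scale. For Elovl5 the RG3487 livers lie between -2.41 and -2.31 and the vehicle livers between -2.27 and -2.02.

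Fads2 encodes delta-6 desaturase, the first and rate-limiting step from linoleic and alpha-linolenic acid to longer polyunsaturated fatty acids. Its signal was 250, 327, 189, 291 and 185 in the RG3487 livers, against 625, 597, 707, 461 and 501 in the vehicle livers. All RG3487 livers lay below all vehicle livers. The mean was 248 ± 62 with RG3487 and 578 ± 99 with vehicle (SD, n = 5 each). The log2 change was -1.18 ± 0.16 (SE; 95% interval -1.53 to -0.84), a signal 56.0% lower (limma adjusted p = 0.000407). From the lowest, it ranked 35 among the changes of 11894 probe sets, and Fads1 ranked 152. In a piece of liver, fewer cells of a type and less RNA per cell cannot be told apart.

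Fads1 encodes delta-5 desaturase, which acts after Fads2 and Elovl5 and yields arachidonic and eicosapentaenoic acid. Its signal was 766, 589, 499, 809 and 519 in the RG3487 livers, against 1221, 941, 1179, 947 and 916 in the vehicle livers. The groups did not overlap, as for Fads2 and as for 18.4% of all retained probe sets (4.48% with RG3487 lower). RG3487 animals 3 and 5 were the lowest of their group, as they were for Fads2. The mean was 636 ± 143 with RG3487 and 1041 ± 147 with vehicle (SD, n = 5 each). The log2 change was -0.71 ± 0.14 (95% interval -1.02 to -0.41), a signal 39.0% lower (limma adjusted p = 0.00317). With a threshold of 1.5-fold beside the p, both desaturases still passed as lower, as did 1.79% of all retained probe sets.

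Fads2 was compared with 3 other members within each animal. The log2 ratio of Fads2 to Fads1 was -1.31 ± 0.29 with RG3487 and -0.84 ± 0.15 with vehicle (SD, n = 5 each). The difference of -0.47 had an exact permutation p = 0.0317, and 0.111 after adjustment over the 7 ratios, so an unequal decrease of the 2 desaturases did not pass. Its ratio to Elovl5, by the brighter probe set, was -3.56 ± 0.31 with RG3487 and -2.28 ± 0.26 with vehicle. The groups did not overlap in that ratio (difference -1.28, exact permutation p = 0.00794, adjusted 0.0556, the lowest possible over 7 ratios when 1 reaches the smallest p). Its ratio to Scd differed by -0.53 (exact permutation p = 0.19, adjusted 0.444), and the groups overlapped.

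**Figure D3:**
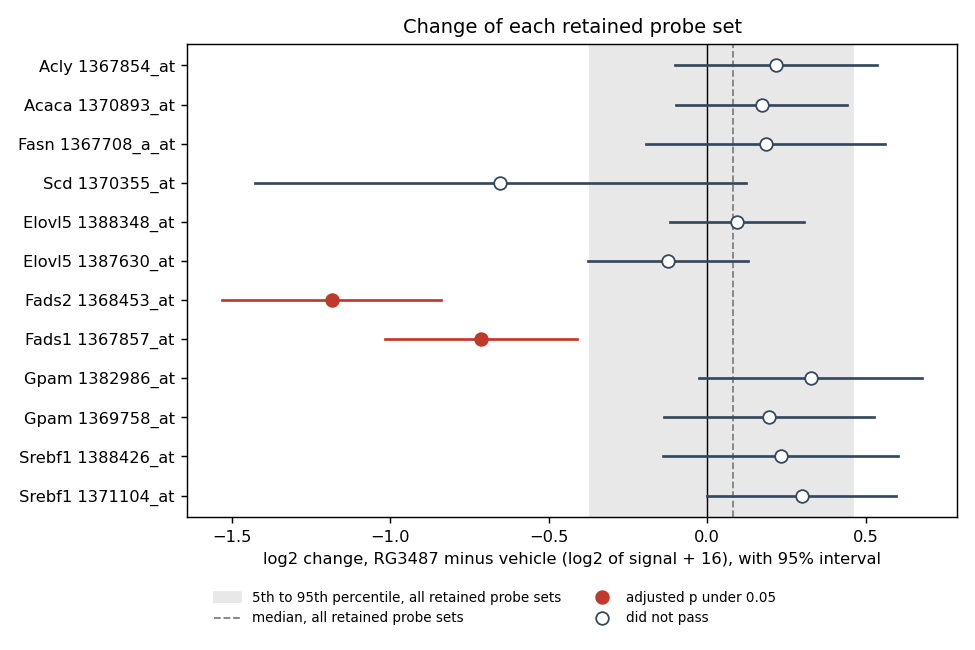
Log2 change, RG3487 minus vehicle, of the 12 retained probe sets with 95% intervals from limma. Filled points passed at an adjusted p under 0.05. The grey band spans the 5th to the 95th percentile of all retained probe sets (-0.37 to 0.46) and the dashed line their median. Fads2 at -1.18, Fads1 at -0.71 and Scd at -0.65 lie left of the band, and the Scd interval crosses 0.

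Gpam encodes the mitochondrial glycerol-3-phosphate acyltransferase, the first step that commits fatty acids to glycerolipid. Its brighter probe set read 211, 187, 293, 151 and 161 with RG3487 and 125, 186, 125, 170 and 165 with vehicle. RG3487 animal 3, the lowest of its group for Elovl5 and Fads1, was here the highest in both Gpam probe sets. The log2 change was 0.33 ± 0.16 (95% interval -0.02 to 0.68; limma adjusted p = 0.149). The other Gpam probe set read 76, 87, 118, 76 and 66 with RG3487 and 77, 93, 48, 74 and 67 with vehicle, with a change of 0.20 ± 0.15 (limma adjusted p = 0.358). Neither passed, and both had groups that overlapped.

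Srebf1 encodes SREBP-1a and SREBP-1c from different promoters, and the probe sets are not assigned to either form here. The brighter probe set read 141, 108, 197, 160 and 140 with RG3487 and 130, 127, 100, 90 and 182 with vehicle. RG3487 animal 3 was again the highest of its group. The log2 change was 0.23 ± 0.17 (95% interval -0.14 to 0.60; limma adjusted p = 0.33). The other probe set read 52, 57, 68, 46 and 47 with RG3487, against 50, 44, 31, 29 and 53 with vehicle. It had a change of 0.30 ± 0.14 and an unadjusted p of 0.0493, but did not pass (limma adjusted p = 0.121). The log2 ratio of Srebf1 to Fasn, a known SREBP-1c target, was 0.36 ± 0.36 with RG3487 and 0.31 ± 0.33 with vehicle (exact permutation p = 0.849, adjusted 0.921 over the 7 ratios).

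The animals did not order alike across the group of genes. RG3487 animal 3 was the highest of its group in 4 and the lowest in 5 of the 12 probe sets, and RG3487 animal 2 was the highest in 4 and the lowest in 1. Of the vehicle livers, animal 4 was the lowest in 5 and the highest in 0, while animals 2 and 5 were each the highest in 4. Vehicle animal 3 had the lowest median deviation from its group's mean over the 12 probe sets (-0.24 on the log2 scale) and vehicle animal 1 the highest (0.17).

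The balance of the members, like that of the whole array, depended on how the arrays were scaled. Fads2 and Fads1 passed as lower as deposited, with quantile normalization, with arrays centred on their median and with scaling to the hybridization controls. These controls, foreign RNAs put into the hybridization mix, have 18 probe sets, and their mean log2 signal was 9.71 with RG3487 and 9.90 with vehicle. Scaling to them moved the median change of all retained probe sets to 0.28, against 0.08 as deposited, and 59.2% of probe sets then passed (56.2% higher and 2.98% lower). With quantile normalization 22.0% passed (1423 probe sets higher and 1193 lower), and with centred arrays 22.7% (1359 higher and 1335 lower), against 2443 higher and 852 lower as deposited. Beside the 56.2% higher across the array with spike-in scaling, 7 of the 12 member probe sets passed as higher, against 0 with each of the other 3. They were those of Acly (0.41), Acaca (0.37), the brighter Elovl5 probe set (0.29), both of Gpam (0.52 and 0.39) and both of Srebf1 (0.43 and 0.49). Fasn, at 0.38, did not pass with spike-in scaling (limma adjusted p = 0.0594). The share of member probe sets that were higher was near that of the array, so it is not read as a result about the members. Relative to the median of all probe sets the changes are by construction the same as deposited and with spike-in scaling, which takes the difference of the controls (-0.195, RG3487 minus vehicle) off every change: -1.27 for Fads2, -0.79 for Fads1, 0.14 for Acly, 0.09 for Acaca and 0.10 for Fasn. Equal amounts of control transcript in all samples are assumed by spike-in scaling and are not shown by the sources used here.

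**Figure D4:**
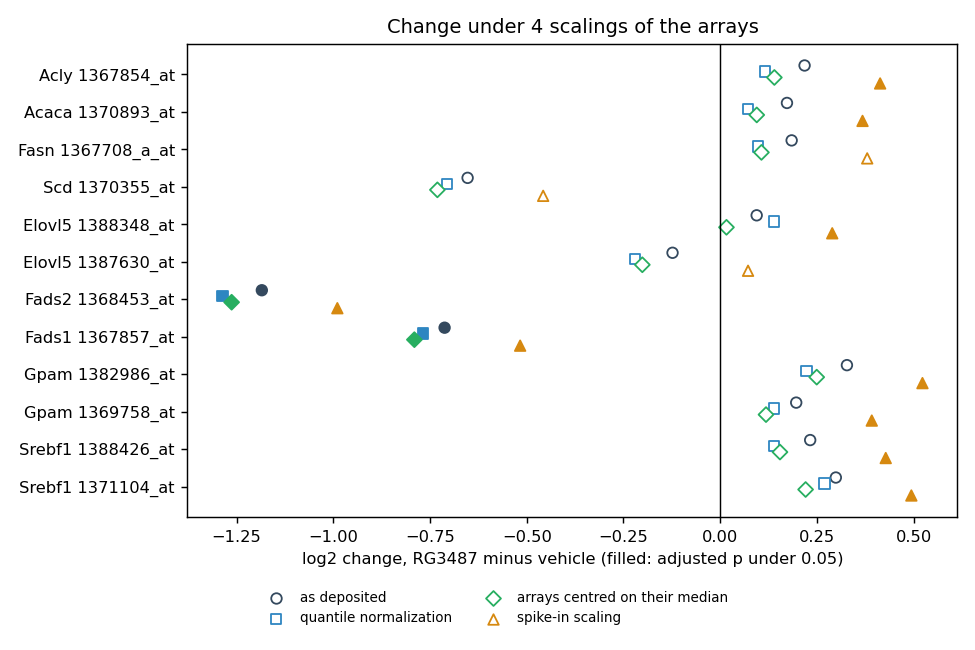
Log2 change, RG3487 minus vehicle, of the 12 retained probe sets under 4 scalings of the arrays. Filled symbols passed at an adjusted p under 0.05 in limma. The symbols of Fads2 and Fads1 are filled and negative under all 4, and 7 probe sets pass as higher only with spike-in scaling. With that scaling 56.2% of all retained probe sets passed as higher.

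Other genes of the pathway were counted in 5 lists, each gene by its brightest retained probe set, beside 22.3% higher and 7.4% lower among all genes. Among genes that supply carbon and NADPH, 4 of 11 tested rose and 0 fell. Slc2a2, the glucose transporter GLUT2, had 3223 ± 316 with RG3487 and 2097 ± 157 with vehicle (log2 change 0.61 ± 0.08, limma adjusted p = 0.000235), with no overlap of the groups. Slc25a1, the citrate carrier, changed by 0.30 ± 0.08, the pyruvate dehydrogenase subunit gene Pdhb by 0.24 ± 0.06 and Pgd, an NADPH-producing enzyme, by 0.23 ± 0.07. The list's median was 0.18. Slc2a2 alone of these 4 passed with arrays centred on their median. Pgd also did not pass without any one of vehicle animals 2, 3, 4 and 5 or RG3487 animals 3, 4 and 5 (limma adjusted p = 0.0511 to 0.0894). With each gene counted by its probe set of smallest p, 5 rose and 1 fell. The latter was Pdha1, another pyruvate dehydrogenase subunit gene, named after its values were seen. Its dimmer probe set was lower (-0.25, limma adjusted p = 0.0371, no overlap), and its brighter one did not pass (-0.09, limma adjusted p = 0.349).

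Of the other genes of synthesis, activation and elongation, 2 of 14 tested rose and 4 fell (median -0.04). Acsl1 fell by 0.34 on the log2 scale, Acsl5 by 0.45 and Acsl4 by 0.24. They encode acyl-CoA synthetases, which activate fatty acids for oxidation as well as for storage. The other gene that fell was Hsd17b12, a gene of elongation, named after its values were seen. It changed by -0.19 ± 0.06 (limma adjusted p = 0.0422), and the groups overlapped. With spike-in scaling and by the rank-sum test 2 genes of the list fell, Acsl1 and Acsl5, so Hsd17b12 did not pass. Hsd17b12 also did not pass without any one of vehicle animals 2, 3 and 4 or RG3487 animals 1, 2 and 4. A dimmer Acsl5 probe set had 0.14 and did not pass. Acsl4 did not pass with spike-in scaling (-0.04, limma adjusted p = 0.56). Thrsp, known as Spot 14 and as a lipogenic gene of the liver, read 443, 963, 479, 779 and 1398 with RG3487, against 378, 257, 214, 224 and 707 with vehicle. Vehicle animal 5, at 707, lay inside the RG3487 range, and the other 4 vehicle livers lay below all RG3487 livers (log2 change 1.17 ± 0.35, limma adjusted p = 0.0269). The Thrsp call was lost without any one of vehicle animals 2, 3 and 4 or RG3487 animals 2, 4 and 5 (limma adjusted p = 0.0525 to 0.0653), with robust variance estimation (0.0668) and by the exact rank-sum test (0.1). The other 2 Thrsp probe sets both passed as higher, with changes of 1.26 and 0.97 (limma adjusted p = 0.0174 and 0.0422). Mid1ip1, its paralog, chosen after its values were seen, read 372, 315, 299, 302 and 434 with RG3487 and 162, 171, 202, 156 and 436 with vehicle. Vehicle animal 5 was again the exception, above all RG3487 livers, and the change of 0.67 ± 0.23 (adjusted p = 0.0457) did not pass with quantile normalization (0.103) or without any one of 9 of the 10 animals.

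In glycerolipid assembly, 3 of 15 rose and 2 fell (median 0.08). Lpin1, a phosphatidate phosphatase, had 176 ± 32 with RG3487 and 352 ± 81 with vehicle (log2 change -0.93 ± 0.15, limma adjusted p = 0.00122), with no overlap. Dgat1, which completes triglyceride synthesis, changed by 0.29 ± 0.06. The lipid droplet genes Cideb and Cidec changed in opposite directions, by 0.34 ± 0.07 and -0.40 ± 0.09. The RG3487 and vehicle livers did not overlap in any of the 4, as for 18.4% of all retained probe sets. These 4 were named for their small p, so their separation is no further evidence.

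Of genes that release or regulate SREBP, 6 of 28 rose and 2 fell (median 0.15). Insig1, which retains SREBP in the endoplasmic reticulum, read 182, 118, 141, 179 and 140 with RG3487, against 1756, 895, 450, 943 and 403 with vehicle. All RG3487 livers lay below all vehicle livers, which themselves differed widely (log2 change -2.24 ± 0.32, limma adjusted p = 0.000558). Irs2, an adaptor of the insulin receptor, was also lower (-1.05 ± 0.23), with 18 to 59 under RG3487 and 59 to 128 under vehicle. Its mean was 40.2 with RG3487, at the limit on dim signals, and 99.2 with vehicle, so its place in the test rests on the vehicle livers. Nfyb, a subunit of the factor that binds CCAAT boxes, rose by 0.66 ± 0.12 and Prkaa1, a catalytic subunit of AMP kinase, by 0.41 ± 0.08. The second Nfyb probe set had 0.19 and did not pass (limma adjusted p = 0.204). Of other SREBP targets, mostly genes of cholesterol synthesis, 2 of 14 rose and 2 fell (median 0.15). Tmem97 changed by 0.40 ± 0.08, Nsdhl by 0.25 ± 0.07, Sc5d by -0.30 ± 0.07 and Stard4 by -0.26 ± 0.09. Stard4 and Sc5d did not pass with spike-in scaling (limma adjusted p = 0.543 and 0.252), and Nsdhl did not with arrays centred on their median (0.0824) or in its second probe set (0.774). Stard4 also did not pass without any one of vehicle animals 1, 3, 4 and 5 or RG3487 animals 1, 2 and 5 (limma adjusted p = 0.0543 to 0.108). Its second probe set had a larger decrease, -0.46, and passed (limma adjusted p = 0.0151). The dimmer Sc5d probe sets also passed as lower, with changes of -0.57 and -0.23 (limma adjusted p = 0.00225 and 0.0482).

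**Figure D5:**
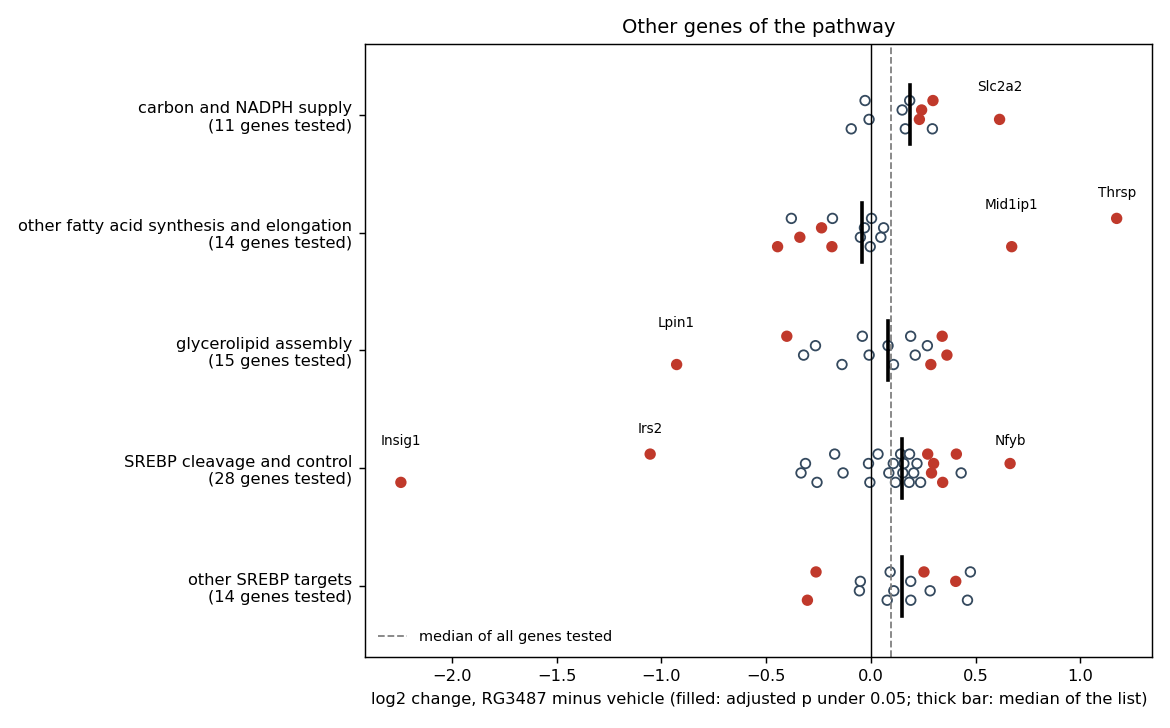
Log2 change, RG3487 minus vehicle, of the tested genes of 5 lists of the pathway, with 1 point per gene. Filled points passed at an adjusted p under 0.05 in limma, thick bars give each list's median, the dashed line gives the median of all genes, and genes beyond 0.55 in either direction are named. Insig1 at -2.24, Irs2 at -1.05 and Lpin1 at -0.93 lie farthest left, and Thrsp at 1.17 lies farthest right.

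The hepatocyte markers Alb, Ttr, Apoa1, Cps1, Tat, Serpina1, Hnf4a and Fgb were all measured, and their summed signal was 40854 to 48075 with RG3487 and 48281 to 50735 with vehicle. Of these 8, Hnf4a was higher and 4 were lower, against 22.3% higher and 7.4% lower among all genes. The summed signal of the Kupffer cell markers, 4 of 6 measured, was 1142 to 1455 with RG3487 and 1352 to 1774 with vehicle, and 1 of the 4 passed, Cd163, which was lower (-0.37, limma adjusted p = 0.00316) with no overlap of the groups. That of the endothelial markers, 4 of 6, was 1119 to 1188 with RG3487 and 1165 to 1350 with vehicle, and 0 passed. That of the stellate cell markers, 6 of 6, was 1330 to 1509 with RG3487 and 1178 to 1532 with vehicle, most of it from Col3a1. Of the 5 stellate markers tested, Dcn was lower (-0.52, limma adjusted p = 0.00354, no overlap) and Col1a1 higher (0.35, limma adjusted p = 0.0267). Groups without overlap and with RG3487 lower, as for Cd163 and Dcn, were seen for 4.48% of all retained probe sets. That of the adipocyte markers, 3 of 7, was 190 to 284 with RG3487 and 190 to 341 with vehicle, with Fabp4 at 14 to 30 under RG3487 and 5 to 31 under vehicle. Of the cholangiocyte, lymphocyte and erythroid markers tested, 0 passed. No marker was listed at 0. The parts of these shifts in the changes of Fads2 and Fads1 were not tested.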

How the data were processed

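Liver RNA of 10 rats was measured on Affymetrix rat arrays, 1 per animal. The deposited table gives each probe set a linear signal intensity, rounded to whole numbers; the submitters' processing notes name MAS5, and the sources used here give no version, scaling target or detection calls. Groups came from the sample titles.

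Probe sets were named from the platform annotation: of 15859 that are not controls, 12562 carry 1 gene, 332 several and 2965 none. RG3487 and vehicle were compared with limma 3.58.1 (lmFit, then eBayes with trend; R 4.3.3) on log2(signal + 16), without the dimmest 25% of probe sets. Ratios of 2 probe sets were compared by an exact two-sided permutation test. The code was tested on simulated data.

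The members and lists were chosen with earlier results of these data known, and no list is independent evidence. Named are all members and up to 4 genes of each list with the smallest p among those that passed. Mid1ip1, Pdha1 and Hsd17b12 were added after their values were seen. The alternatives were other pseudocounts, scalings, filters, variance estimates, thresholds and tests, the replicate block, and each array left out.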

Additional observations from a re-analysis of the deposited data

Results flagged for a closer look

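In the RG3487 group, the Fasn signal of animal 5 (138) stood apart from those of the other 4 (99 to 108), with a gap of 0.742 of the group's range on the log2 scale against a critical value of 0.71 (Dixon's ratio). It was the only such value in 24 groups of 5 checked, 12 probe sets in each group, and chance gives about 1 in 20. Without that animal the Fasn change was 0.11.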

How the results depend on the processing

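Fads2 and Fads1 stayed lower and past the threshold in all 22 alternatives run for each, which include each array left out (Fads2 -1.29 to -0.99, Fads1 -0.80 to -0.52). Member probe sets called numbered 0 higher and 2 lower throughout, except with spike-in scaling, which gave 7 higher (5 of the genes). With that scaling 56.2% of all retained probe sets were higher. Across the array, 2443 probe sets were higher and 852 lower as deposited, 1423 higher with quantile normalization, 1359 and 1335 with centred arrays, 6683 and 354 when scaled to spike-ins, 249 and 213 at a 1.5-fold threshold, and 533 lower by the exact rank-sum test. In the 5 lists together, with 11, 14, 15, 28 and 14 genes tested, 17 genes were higher and 10 lower. Among all genes 22.3% were higher and 7.4% lower. The counts of the 5 lists became 8 higher with centred arrays, 46 and 6 when scaled to spike-ins, 10 and 5 by the rank-sum test, and 4 and 3 at 1.5-fold. The dimmer Elovl5 probe set read 0.0721 with spike-in scaling and -0.12 as deposited, which follows by construction, since that scaling takes the controls' difference of -0.195 off every change; relative to the median of all probe sets it was -0.21 in both. By the rank-sum test Pgd, Slc25a1, Acsl4, Irs2, Sc5d and Stard4 (adjusted p = 0.0647 each), Thrsp and Nsdhl (0.1 each) and Mid1ip1 (0.288) no longer passed. Hsd17b12 did not pass by that test either. Differences in log2 ratios near 0 turned sign: at a pseudocount of 64, Fasn to Acaca gave -0.0114 and the Srebf1 probe set pair -0.0079. With each array left out, Fasn to Acaca ran from -0.0476 to 0.0847, Fasn to Acly from -0.1126 to 0.0379, Acly to Acaca from -0.0574 to 0.1429, Srebf1 to Fasn from -0.0838 to 0.1339, the Acaca pair from -0.1511 to 0.0004 and the Srebf1 pair from -0.049 to 0.1362. The ratio of Elovl6 to Elovl5 was not run, since Elovl6 was too dim.

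Animals of both groups share replicate numbers 1 to 5, but same-numbered animals did not deviate together (correlations -0.04 to 0.17, and 2 of 5 RG3487 animals correlated best with their own number), so the numbers were not taken as pairs. With the replicate block, 0 member probe sets were higher and 2 lower (Fads2 adjusted p = 0.00208, Fads1 0.0056; limma), and across the array 2098 were higher and 820 lower. Of the pathway genes named, Pgd (0.0572) and Stard4 (0.106) no longer passed with the block.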
